A study of Caenorhabditis elegans with 2 samples.

Results

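The genes described here encode the proteins of the small (40S) subunit of the cytosolic ribosome of Caenorhabditis elegans. They were taken from the Ensembl annotation as the protein-coding genes named rps- followed by a digit, which gave 31 of 19985 protein-coding genes. Both samples are ChIP-seq libraries of the nuclear hormone receptor NHR-84 from whole L1 larvae, with both sexes pooled, and they form 1 group with 2 biological replicates. The strain, OP357, carries the unc-119(tm4063) III mutation and the integrated transgene wgIs357, from which NHR-84 with a C-terminal GFP-FLAG tag is expressed. The labels do not say which sequence drives the transgene, both replicates come from this strain, and whole animals cannot show in which cells a region was bound. With no second condition, none of the values compares conditions. The control library was not used here.

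The small subunit holds the mRNA and the decoding centre, where each codon is matched to a tRNA. Its proteins are needed in equal numbers, and in most organisms their genes are among the most highly transcribed. In C. elegans many of these transcripts are trans-spliced: a short leader RNA replaces the original start of the transcript, so that the annotated 5' end of the gene is often a splice site and transcription begins upstream of it. Nuclear hormone receptors bind DNA through a zinc finger domain, often at half-sites such as AGGTCA.

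For each gene the value is the region with the highest signal whose summit lay from 500 bp upstream to 100 bp downstream of an annotated 5' end, called the promoter here. The signal is the peak caller's own number and its scale is not stated, so each value is given with its rank in its list, where rank 1 is the highest. Each replicate has a list of 30000 regions, and so do the replicates pooled, with median signals of 11.7 in replicate 1, 11.5 in replicate 2 and 20.4 in the pooled list. These lists reach down into background by construction, so a region far down a list need not be a binding site. A shorter list of 106 peaks passed the irreproducible discovery rate (IDR) step, and these are ranks 1 to 106 of the pooled list. Read counts are not part of the lists. Depth is therefore unknown, and single values come without a counting error. Coordinates are on build ce11.

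A pooled region lay at the promoter of 14 of the 31 genes (45.2%, 95% Wilson interval 29.2 to 62.2), against 24.9% of all protein-coding genes. The other 17 had none and count as unmarked. The marked genes stood high in the list: 7 of the 31 (22.6%, 11.4 to 39.8) had a region among the 1000 highest, against 2.00% of all coding genes. An IDR peak lay at 5 of the 31, rps-1, rps-19, rps-20, rps-26 and rps-28 (16.1%, 7.09 to 32.6), against 0.360%. The median pooled rank of the 14 marked genes was 1374, against 12181.5 over the 4980 marked coding genes. It was 3133 in the list of replicate 1 alone, and in the pooled list 4340.5 for a window from 250 bp upstream and 4524 for one from 1000 bp upstream to 200 bp downstream. The genes thus spread over a wide range, from rank 9 at rps-19 to rank 19771 at rps-7, with 8 genes from rank 9 to rank 1786, 6 genes from 7215 to 19771, and none between these ranges. The intervals cover counting error over genes only. No test was made, since the genes were chosen with earlier results of these data known.

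**Figure D1:**
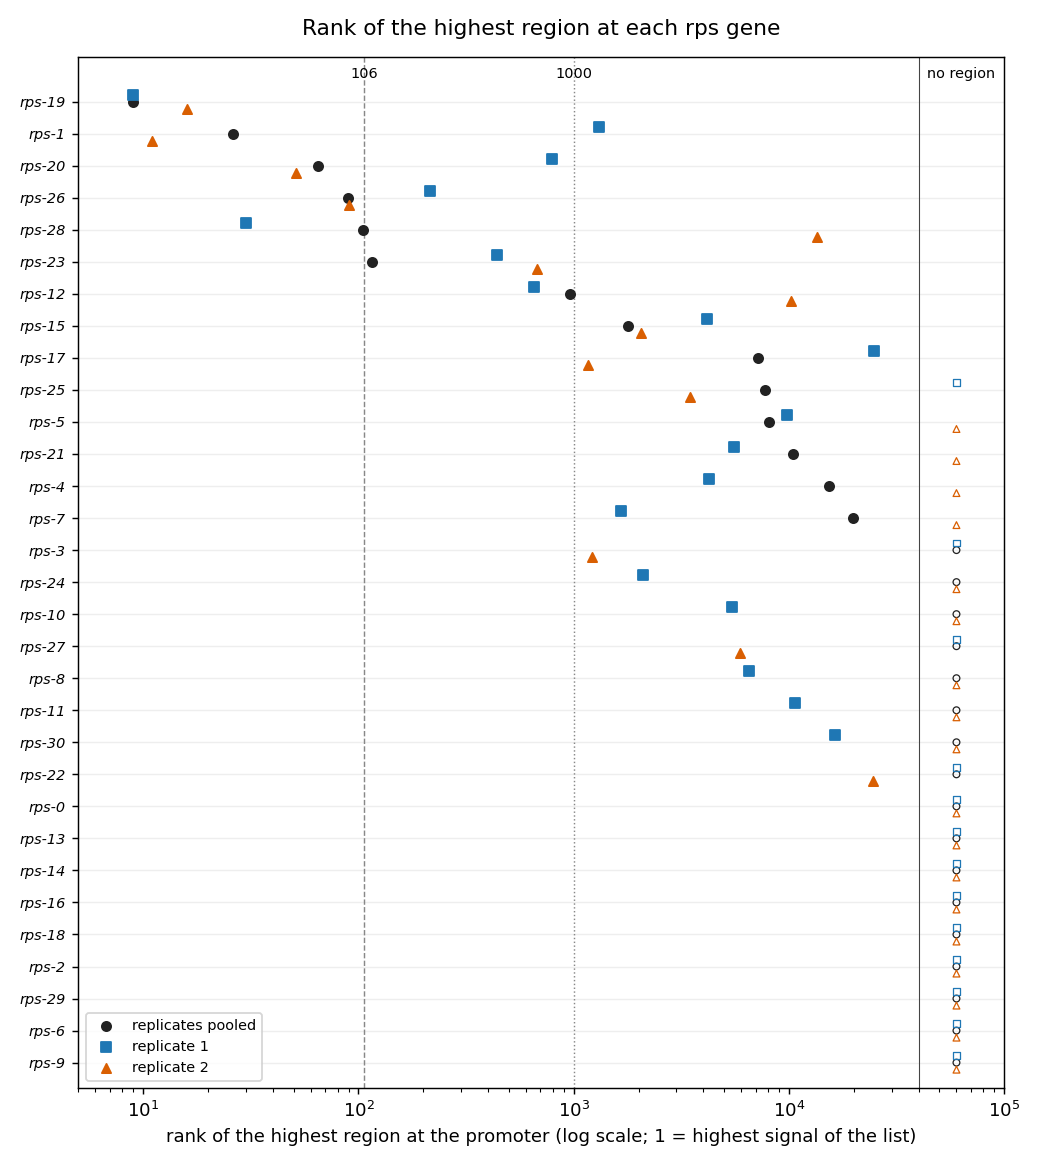
Rank of the highest region at the promoter of each of the 31 rps genes (x axis, log scale, 1 = highest signal) in the pooled list (circles), replicate 1 (squares) and replicate 2 (triangles), with open symbols at the right where a list has no region. The dashed line marks rank 106, the end of the IDR list, and the dotted line rank 1000. The upper 7 genes have pooled ranks from 9 to 962, while 9 genes at the bottom have no region in any of the 3 lists.

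Of the genes with an IDR peak, 3 (rps-1, rps-26 and rps-28) encode proteins along the path by which mRNA leaves the subunit. That is by the structures of yeast and mammalian ribosomes. The genes were picked by their values, and the other proteins of that path were not tallied. Whether place in the subunit goes with signal was not tested. At rps-1 (WBGene00004470, III, plus strand, gene 4475918 to 4476876) the signal was 19.3 in replicate 1, 52.9 in replicate 2 and 76.7 in the pooled list. These were ranks 1306, 11 and 26, so the gene was among the strongest of the list in replicate 2 and far below that in replicate 1, with summits 15 bp apart. At rps-26 (WBGene00004495, I, plus strand, 14759930 to 14760626), whose human counterpart is one of several small subunit genes mutated in Diamond-Blackfan anaemia, the signal was 25.5 in replicate 1, 30.8 in replicate 2 and 54.8 in the pooled list. Both replicates placed it high, at ranks 214 and 90, and the pooled rank was 89. At rps-28 (WBGene00004497, IV, plus strand, 1659691 to 1659997) the signal was 37.6 in replicate 1, 11.9 in replicate 2 and 52.2 in the pooled list. The replicates differed most here in proportion: rank 30 in replicate 1 against 13475 in replicate 2. The replicate 2 region was not at the same place, since it lay 37 bp downstream of the 5' end, and a lower one at 387 bp upstream had a signal of 10.1 (rank 22319). Replicate 2 thus had no region of high rank near the IDR peak of rps-28.

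RPS-19, RPS-20 and RPS-12 are among the proteins of the head of the subunit. Their genes too were picked by their values, and the other proteins of the head were not tallied. The strongest region of the whole set was at rps-19 (WBGene00004488, I, minus strand, 9625049 to 9625796), whose human counterpart is the gene most often mutated in Diamond-Blackfan anaemia. Its signal was 52.6 in replicate 1, 47.0 in replicate 2 and 103 in the pooled list, at ranks 9, 16 and 9, and it alone of the 31 genes was among the 106 highest regions in both replicates. For scale, the highest region of the series, at the large subunit gene rpl-3, had a pooled signal of 175. At rps-20 (WBGene00004489, I, minus strand, 14468332 to 14469103) the signal was 20.9 in replicate 1, 35.5 in replicate 2 and 57.6 in the pooled list. Its ranks were 795, 51 and 65, and a second region 469 bp upstream stood at rank 199 in replicate 2 and 1607 in the pooled list. At rps-12 (WBGene00004481, III, plus strand, 5679298 to 5680187) the signal was 21.4 in replicate 1, 12.8 in replicate 2 and 34.5 in the pooled list. Its ranks were 654, 10262 and 962, with the replicate summits 128 bp apart, so replicate 2 gave little at the place replicate 1 marked.

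RPS-23 lines the decoding centre and bears on the accuracy of translation. The rps-23 gene (WBGene00004492, IV, minus strand, 12390298 to 12391053) had a signal of 22.7 in replicate 1, 21.3 in replicate 2 and 50.7 in the pooled list. Its pooled rank of 116 was just outside the IDR list, which ended at rank 106 with a signal of 52.0, and rps-28 at rank 105 was just inside. The replicates were closer for rps-23 than for rps-28, with ranks of 442 and 677 and summits 9 bp apart. A gene's place on either side of the IDR limit therefore does not order these 2 genes by how alike the replicates were. The q-values deposited with these regions were 0.0182 at rps-1 and rps-19, 0.271 at rps-20, 0.277 at rps-26, 0.407 at rps-28, 0.481 at rps-23 and 0.895 at rps-12.

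The other 7 marked genes had low signals. The next was rps-15, at 15.8 in replicate 1, 17.7 in replicate 2 and 31.1 in the pooled list (rank 1786). The remaining 6, rps-17, rps-25, rps-5, rps-21, rps-4 and rps-7, had pooled signals from 18.8 to 24.2, between 0.921 and 1.19 times the median of all pooled regions. Of these 6, only rps-17 had a region in both replicates, and they lay 409 bp apart (ranks 24883 and 1161). With rps-28 and rps-12 it had the largest rank differences between replicates.

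The unmarked genes were rps-0, rps-2, rps-3, rps-6, rps-8, rps-9, rps-10, rps-11, rps-13, rps-14, rps-16, rps-18, rps-22, rps-24, rps-27, rps-29 and rps-30. Among them are rps-6, whose product is phosphorylated by S6 kinase, rps-3, whose product sits where mRNA enters the subunit, and rps-30, whose product is made as a fusion with a ubiquitin-like protein. Of these 17 genes, 5 had a region in replicate 1 alone and 3 in replicate 2 alone, and 9 had none in any list. For some the nearest pooled summit was only just outside the promoter window. At rps-24 it lay 549 bp upstream and ranked 271, higher than the regions of several marked genes. At rps-14 it lay 515 bp upstream (rank 1727) and at rps-3 501 bp upstream (rank 4524). A gene without a region is thus unmarked in this window and at this length of list, which does not show that nothing was bound.

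The replicates placed many of these genes differently, also some with an IDR peak. rps-1 stood at rank 1306 in replicate 1 and 11 in replicate 2, and rps-28 at 30 and 13475. The ranks were closer at rps-19 (9 and 16) and rps-26 (214 and 90). In replicate 1, 18 of 31 had a region at the promoter (58.1%), against 25.5% of all coding genes, and in replicate 2, 13 of 31 (41.9%), against 24.6%. There were 9 genes with a region in both (29.0%, against 11.1%), 9 in replicate 1 only, 4 in replicate 2 only and 9 in neither. Among the 1000 highest regions, replicate 1 had 6 of the 31 genes (background 1.90%) and replicate 2 had 5 (background 1.76%). In both at once there were 4, rps-19, rps-20, rps-23 and rps-26 (12.9%, against 0.475%). Of the 9 genes marked in both replicates, 6 had their highest summits within 100 bp of each other. That count was not set against all coding genes, so it does not say whether 6 of 9 is usual. Over these 9 genes the ranks in the replicates had a Spearman rho of 0.03 and a Pearson r of 0.16 on log10 ranks, given as a description, since the genes share 2 libraries and were not independent. The 106 highest regions of replicate 1 lay at 2 of the genes, rps-19 and rps-28, against 0.275% of all coding genes. Those of replicate 2 lay at 4, rps-1, rps-19, rps-20 and rps-26, against 0.315%.

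At all 14 genes the highest pooled summit was between 163 bp (rps-5) and 471 bp (rps-15) upstream, with a median of 282.5 bp, against a median of 173 bp over all marked coding genes. The order of these medians turned in a window from 2000 bp upstream to 500 bp downstream, with −451.5 bp for the rps genes and −610 bp for all coding genes (negative is upstream). Over all marked coding genes, 53.9% of summits were more than 150 bp upstream, a limit chosen after these distances were seen. The medians in replicates 1 and 2 were 292 and 263 bp, with 16 of 18 and 12 of 13 summits more than 150 bp upstream. The exceptions were rps-17 (50 bp downstream) and rps-8 (41 bp upstream) in replicate 1 and rps-28 in replicate 2, all with ranks of 6530 or lower in the list. All 14 pooled summits were in intergenic sequence. The counts changed with the window: from 250 bp upstream, 4 of the 31 genes had a pooled region (background 16.4%), 2 had one among the 1000 highest (1.26%), 1 had an IDR peak (0.195%) and 2 had a region in both replicates (5.89%).

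**Figure D2:**
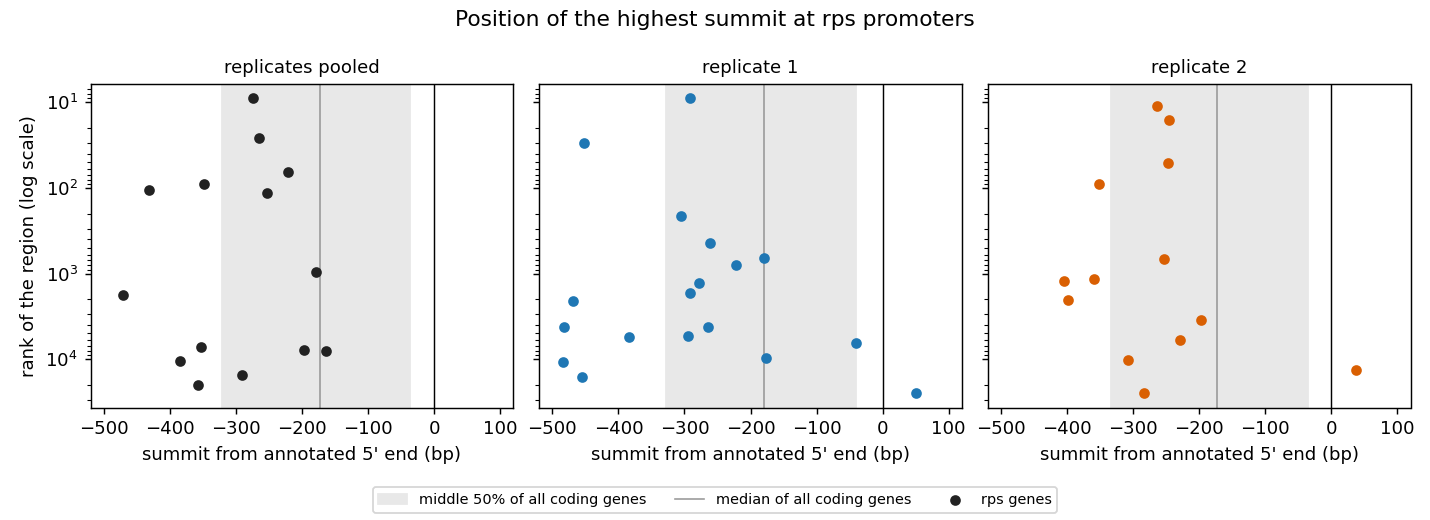
Distance of the highest summit from the annotated 5' end (x axis, bp, negative upstream) against the rank of the region (y axis, log scale, highest signal at the top) for the rps genes in the pooled list and in each replicate. The grey band runs from the first to the third quartile of all coding genes with a region, and the grey line is their median (173 bp upstream in the pooled list). All 14 pooled summits lie between 163 and 471 bp upstream.

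The 5' ends of most of these genes have the letters of a splice acceptor. In 28 of the 31 genes (90.3%) the 2 bases directly before the outermost annotated 5' end were AG, with which an acceptor ends, against 27.6% of all coding genes on the nuclear chromosomes. The longer acceptor TTTTCAG stood there in 10 genes (32.3%, against 7.16%). Large subunit genes were much alike, with AG in 38 of 47 (80.9%) and TTTTCAG in 17 of 47 (36.2%). The rps genes without AG were rps-22, rps-24 and rps-27. Where a 5' end is a trans-splice site, transcription starts upstream of it, at a place these files do not give, so distances here are to the annotated end only. The 30 bases before the 5' end show the acceptor for 3 of the genes with regions of high pooled rank. They are shown also for rps-24, which has no AG there. They are given 5' to 3' on the gene's strand, with TTTTCAG in capitals:
rps-1, chrIII:4475888-4475917, plus strand: tactgttaaattatgtattcctaTTTTCAG
rps-12, chrIII:5679268-5679297, plus strand: tattaacgagtcgaaatttctaaTTTTCAG
rps-28, chrIV:1659661-1659690, plus strand: ttttgtctttataatttcaatttctttcag
rps-24, chrIV:385857-385886, plus strand: gacaattttaaaactacaattcaaatttat

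Base composition differed between the regions among the 1000 highest and those below them. Within 50 bp of the summit, G and C made up between 40.6% (rps-26) and 53.5% (rps-19) of the bases at the 7 genes with a region among the 1000 highest. Their mean was 49.9% ± 4.50 (SD over 7 regions), against 41.8% ± 8.92 over the 329 regions of such rank at coding promoters. Of the 7 lower genes, 6 had between 23.8% (rps-7) and 33.7% (rps-17), and the exception was rps-4 with 51.5%. The contrast depends on the limit of 1000, which falls between rps-12 (rank 962, 52.5%) and rps-15 (rank 1786, 24.8%). Split at the gap in ranks below rps-15 instead, the higher genes would include rps-15 as an exception. Regions at all coding promoters had 36.9% ± 8.10 (5116 regions). Whether base composition has a part in the signal was not tested.

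**Figure D3:**
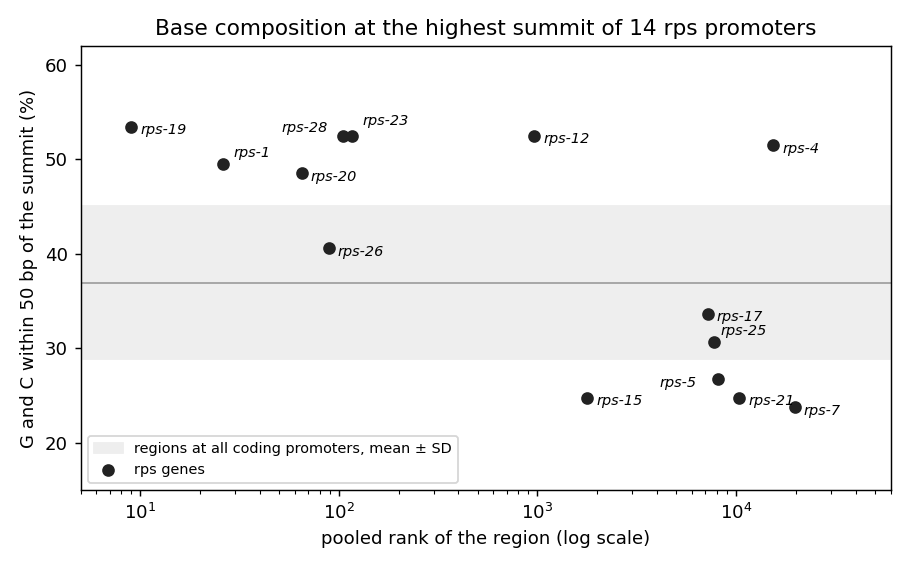
Percentage of G and C within 50 bp of the highest pooled summit (y axis) against the pooled rank of the region (x axis, log scale) for the 14 marked rps genes. The grey line and band are the mean and SD of regions at all coding promoters. The 7 genes at rank 962 or higher in the list have 40.6 to 53.5%, and 6 of the 7 below have 23.8 to 33.7%.

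The sequences at 4 summits of higher pooled rank and at 1 of lower pooled rank, rps-25, are shown because they carry this contrast in base composition. The order is by pooled rank only, with rps-12 at 962 and rps-25 at 7719. The pooled q-value was no lower at rps-12 (0.895) than at rps-25 (0.835). In replicate 2, rps-12 and rps-28 stood at ranks 10262 and 13475, below rps-25 at 3485, while rps-25 had no region in replicate 1. Each is 100 bases on either side of the pooled summit, 5' to 3' on the gene's strand, read from the RefSeq copy of the reference assembly. Capitals mark 6 words on either strand, each counted separately where they overlap: the receptor half-site AGGTCA and its variant AGTTCA, the repeat GAGAGA and the GC-rich word GAGCGC, and lastly CGCGCA as well as CTGCGTC.
rps-1, chrIII:4475553-4475753, plus strand: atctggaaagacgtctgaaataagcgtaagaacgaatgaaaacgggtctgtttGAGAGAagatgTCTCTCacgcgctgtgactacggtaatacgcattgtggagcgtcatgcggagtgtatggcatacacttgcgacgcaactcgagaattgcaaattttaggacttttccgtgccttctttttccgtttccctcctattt
rps-28, chrIV:1659159-1659359, plus strand: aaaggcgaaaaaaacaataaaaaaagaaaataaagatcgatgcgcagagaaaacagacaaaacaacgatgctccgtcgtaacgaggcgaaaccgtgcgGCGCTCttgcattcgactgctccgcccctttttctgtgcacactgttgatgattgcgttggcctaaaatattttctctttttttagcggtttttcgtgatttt
rps-23, chrIV:12391206-12391406, minus strand: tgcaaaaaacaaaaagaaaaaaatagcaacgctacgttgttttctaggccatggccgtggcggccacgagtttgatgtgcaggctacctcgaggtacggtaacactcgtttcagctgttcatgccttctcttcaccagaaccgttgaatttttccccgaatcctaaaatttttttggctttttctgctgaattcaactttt
rps-12, chrIII:5679019-5679219, plus strand: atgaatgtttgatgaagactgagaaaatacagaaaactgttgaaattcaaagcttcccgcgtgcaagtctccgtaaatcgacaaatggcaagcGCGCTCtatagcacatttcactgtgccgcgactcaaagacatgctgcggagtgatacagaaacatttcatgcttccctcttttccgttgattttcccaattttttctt
rps-25, chrIV:5947702-5947902, minus strand: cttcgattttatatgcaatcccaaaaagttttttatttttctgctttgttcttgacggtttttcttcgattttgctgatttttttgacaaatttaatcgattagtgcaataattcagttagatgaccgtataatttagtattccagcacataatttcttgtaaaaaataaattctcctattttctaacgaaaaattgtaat

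In rps-28 and rps-12 the reverse complement of GAGCGC lies within a few bases of the summit, and in rps-1 a GAGAGA and its reverse complement lie close together upstream of the summit. None of the 6 words is in the windows of rps-23 or rps-25. Over the 14 summits the nuclear receptor half-site AGGTCA was in no window, against 5.06% of regions at coding promoters. AGTTCA was at 2 (rps-4 and rps-17), against 13.7%. GAGCGC was at 3 (21.4%), rps-12, rps-15 and rps-28, against 5.04% of regions at coding promoters. Among the 1000 highest it was at 2 of the 7 rps summits (28.6%), against 14.6% of regions at coding promoters of such rank. GAGAGA was at 2 (14.3%), against 15.6%. GATAA was at 5 of the 7 lower summits and at none of the 7 higher ones, against 40.9% of regions at coding promoters. TATAAA was at 3 of the 14 (21.4%), against 21.9%. All 3 were among the lower 7, and none of the higher 7 had it, against 16.7% of regions at coding promoters among the 1000 highest. CGCGCA was at none (4.71% of regions at coding promoters), nor was CTGCGTC (3.64%) or the E-box CACGTG (3.95%). The lower summits were mostly AT-rich, and whether base composition has a part in these word counts was not tested. With 14 summits, no match says only that the letters are not in these windows.

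Several of the pooled regions at rps promoters lay between divergent genes. At 6 of the 14 marked genes (42.9%) the summit was also in the promoter window of another coding gene, against 15.2% of all marked coding genes. These were hsr-9 at rps-19, ekl-4 at rps-20, tmem-107 at rps-26, dpm-3 at rps-23, ska-3 at rps-12 and F36A2.9 at rps-15, each on the opposite strand. The trait is not particular to the rps genes. The share was 40.7% of the marked large subunit genes (11 of 27) and 44.4% of the marked mitochondrial small subunit genes (4 of 9). For initiation factor genes it was 27.3% (3 of 11). The summit was nearer to the 5' end of the partner at rps-19 (171 bp against 274), rps-20 (176 against 221), rps-26 (108 against 349), rps-12 (114 against 179) and rps-15 (310 against 471), but not at rps-23 (281 against 253). hsr-9 acts in the response to DNA damage, dpm-3 is named for a subunit of dolichol phosphate mannose synthase and ska-3 for a protein of the spindle and kinetochore complex. To which gene of a pair a region belongs cannot be told apart by position. Counting summits in no other coding gene's window, 8 genes had a pooled region (background 21.3%), and rps-1 and rps-28 alone had one among the 1000 highest and an IDR peak (background 1.27% and 0.200%). Under that rule 2 of the 31 genes had a region in both replicates, a lower share than the 9.04% of all coding genes. The rps-1 summit also lay in the windows of the noncoding RNA genes F56F3.10 and F56F3.11, the rps-12 summit in that of the snoRNA gene F54E7.10, which is inside rps-12, and the rps-21 summit in those of 2 piRNA genes. The rps-26 summit lay in the window of the snoRNA gene F39B2.14 and within 200 bp of the gene itself.

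Some unmarked genes share their upstream sequence with other genes of the ribosome. These neighbours were noted after the values were seen. rps-14 and the large subunit gene rpl-36 are divergent, 662 bp apart, and the region 515 bp upstream of rps-14 lay 148 bp upstream of rpl-36 (pooled signal 31.3, rank 1727, and rank 353 in replicate 1). rps-10 and rpl-24.1 shared 1 region in replicate 1 (rank 5421) and none in the pooled list, as did rps-30 and rpl-39 (rank 16356). rps-16 lies 109 bp downstream of fib-1 on the same strand. Fibrillarin, the product of fib-1, methylates ribosomal RNA. fib-1 had a pooled region 147 bp upstream (signal 30.9, rank 1875), which is the nearest one to rps-16, at 1575 bp.

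Set beside other genes of translation, the shares of rps genes with strong regions were nearest to those of the large subunit genes. Of the 47 rpl genes, 27 (57.4%) had a pooled region, 9 (19.1%, Wilson interval 10.4 to 32.5) had one among the 1000 highest and 7 (14.9%, 7.41 to 27.7) an IDR peak. Their median pooled rank was 1949, and their summits had a median of 162 bp upstream, against 282.5 bp for the rps genes. Of the 29 genes for the small subunit of the mitochondrial ribosome, 9 (31.0%) had a pooled region, 1 (mrps-7) among the 1000 highest, and none an IDR peak. Of 41 large subunit mitochondrial genes the counts were 16, 2 and 0, and of 30 initiation factor genes 11, 1 and 0. In these 3 lists the median pooled ranks were 8373, 3228.5 and 11555. Of the 6 elongation factor genes, 5 had a region among the 1000 highest and 2 an IDR peak. A further list held 16 genes with parts in making ribosomes, not only the small subunit, such as fib-1 and the kinase genes riok-1 and riok-3. Of these 16, 8 had a pooled region and 2 (riok-1 and riok-3) one among the 1000 highest. The 3 genes of the acidic stalk had 2 marked, with no region among the 1000 highest. The 2 further components of the small subunit that are not named rps were low. rack-1, which encodes a scaffold on the head of the subunit, had a pooled region at rank 5496 (signal 25.6) and none in replicate 2. ubl-1, which encodes a ubiquitin fusion with a small subunit protein, had none in the pooled list and ranks of 2298 and 2493 in the replicates, at places 81 bp downstream and 312 bp upstream. These lists were set side by side without a test, and the difference between any pair of them was not tested.

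**Figure D4:**
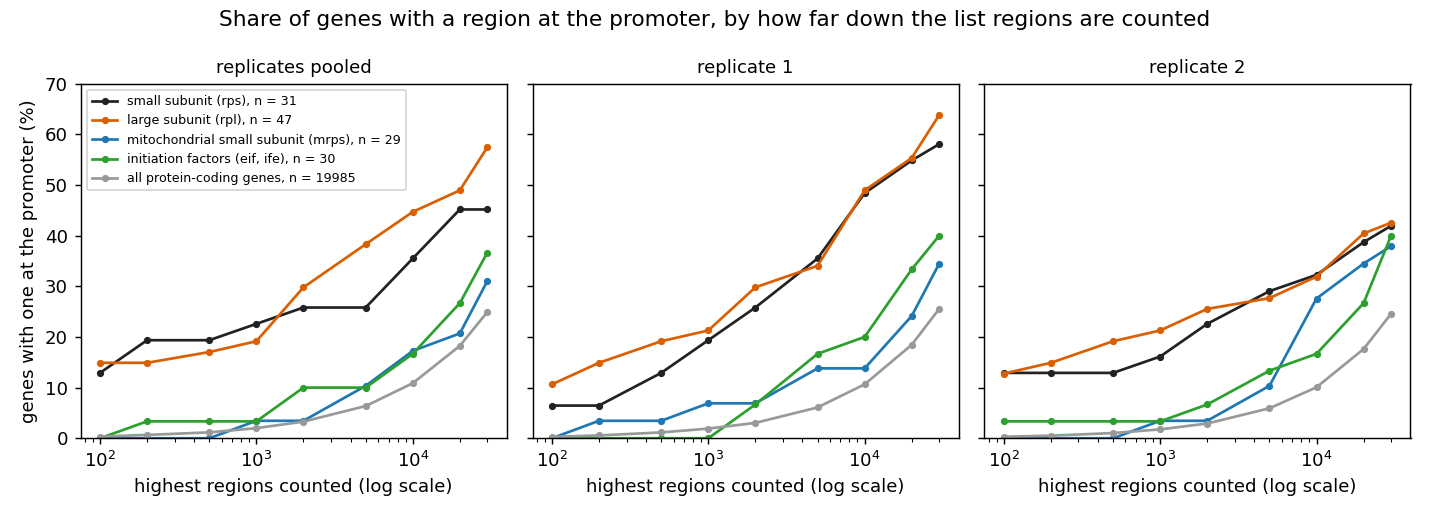
Percentage of genes with a region at the promoter (y axis) when only the highest regions of a list are counted (x axis, log scale, from 100 to 30000 regions), in the pooled list and each replicate, for 4 gene lists and all coding genes. At 1000 regions the pooled shares are 22.6% for rps genes, 19.1% for rpl genes and 2.00% for all coding genes, and in each list the rps and rpl lines lie above that of all coding genes at every limit.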

How the data were processed

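The deposited files are narrowPeak lists of regions on ce11. Per the deposited file records, each replicate list was made from that replicate's alignment, the pooled list from both, each with a control alignment as a further parent, and the IDR list from these 3. An aligner, a caller, its settings or an IDR threshold was not given in the sources used here. In these lists the authors' signal column is the caller's own value, and the deposited −log10 q column was turned into q. Lists on ce10 were not used.

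Summits were taken as deposited and set against every annotated 5' end of protein-coding transcripts in Ensembl release 115 (WBcel235, the assembly of ce11). All regions fell within the chromosomes of that assembly. Ranks order regions by signal within a list. Sequence came from the RefSeq copy of WBcel235. Shares were given with Wilson intervals, and no test was made. The assignment to windows was checked on simulated regions. Python 3.11.15, numpy 2.4.6, pandas 2.3.3, scipy 1.17.1 and matplotlib 3.10.9 were used.

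Nothing says whether the replicates, called biological, came from separate cultures. The genes, lists and words were chosen with earlier results of these data known. Genes named singly were those with an IDR peak, the 6 with the highest pooled signal, the 3 with the largest rank difference between replicates, those next to the end of the IDR list, all unmarked genes, rpl-3, ubl-1, rack-1, and genes sharing a summit with these. rps-12 was named under the rank difference, and the other marked genes, the neighbours of unmarked genes and those named from other lists were added after their values were seen.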

Additional observations from a re-analysis of the deposited data

How the results depend on the processing

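Of 48 alternatives over 7 results, 26 stayed within 1.5 times the main count or, for medians, within the SD between replicates (1358 ranks and 20.5 bp). Window: from 1000 bp upstream to 200 bp downstream, 25 genes had a pooled region (background 40.4%) and 17 one in both replicates (22.2%), with a median rank of 4524 at −471 bp. From 250 bp upstream these were 4 (background 16.4%), 2 (5.89%), 4340.5 and −188 bp, with 2 genes among the 1000 highest (1.26%), 1 IDR peak (0.195%) and 2 shared summit positions. From 2000 bp upstream to 500 bp downstream, 28 genes had a pooled region (background 60.3%), 23 one in both replicates (42.5%) and 10 a shared summit position, at a median of −451.5 bp, nearer the 5' end than the −610 bp of all coding genes. In the window from 250 bp the share of marked genes was below that of all coding genes. Shared summit positions were not set against all coding genes in any window. Summits in no other coding gene's window left 8 genes with a pooled region (21.3%), 2 among the 1000 highest (1.27%), 2 with an IDR peak (0.200%) and 2 marked in both replicates, a share below the 9.04% of all coding genes. The 53 highest IDR peaks lay at 2 genes (0.165%). With 1 replicate no IDR step is possible, so the top 106 regions called in the remaining replicate stood in for it. These lay at 4 genes without replicate 1 (background 0.315%) and at 2 without replicate 2 (0.275%). The median rank was then 1212 to 3133. Beyond these settings' own construction, the cause was not tested. Taking the outermost 5' end, the 500, 2000 or 5000 highest regions, or other summit distances stayed within those bounds. No paired analysis was possible because only 1 group exists. What depth limits was not tested, since the lists hold no counts.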

Other observations

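Of the 31 small subunit genes, 12 had a pooled summit within the gene body past the promoter window, 1 each, a count that was not set against that of all coding genes. The highest was in an intron of rps-18 (signal 29.6, rank 2463), 373 bp downstream of the 5' end of a gene with no region at its promoter. The others had signals from 16.5 (rps-29) to 24.8 (rps-2), at ranks of 6512 or lower in the list. By place, 7 of the 12 were in coding exons, 3 in introns and 2 in a 3' UTR.

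Small nucleolar RNAs, which guide the modification of other RNAs, are annotated inside 5 of the 31 genes: rps-4, rps-12, rps-13, rps-23 and rps-29. The body regions of rps-13 (signal 19.7, rank 16816) and rps-29 (signal 16.5, rank 28525) lay within 200 bp of such a gene. The region upstream of rps-12 lay farther than 200 bp from a small RNA gene, but in the promoter window of the snoRNA gene F54E7.10 inside rps-12.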
